A study of Rattus norvegicus with 9 samples.

Results

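Complement is a system of plasma and membrane proteins, most of them made by hepatocytes, whose genes are described here in rat liver with and without follicle-stimulating hormone (FSH). The rule named 37 genes by symbol: components, regulators and receptors of complement. Of these, 33 were found among the 24496 genes of the deposited count table and 30 had enough reads to be tested, out of 11924 genes tested in all. The members C2, C4b, Cfb and Cfd were not analysed here, and C4a, Cd46 and Cd55 were too low to test.

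All 9 animals were female Wistar rats, an outbred laboratory stock, and each gave 1 liver library. From 10 weeks of age they ate western diet and, after 6 weeks of it, their ovaries were taken out. All of them also carried degarelix, which blocks the receptor for gonadotropin-releasing hormone and so lowers the animal's own gonadotropins. Osmotic pumps held vehicle in 5 rats (the vehicle group, labelled Degarelix-only). In the other 4 rats (the FSH group, labelled Degarelix + FSH) the pumps gave a daily FSH dose of 6 µg per kg. Feeding was restricted for 12 days and free for 7 days, and the livers were collected after a 4 h fast at 19 weeks of age. The comparison asks what FSH does to liver transcripts in animals without ovaries.

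Complement starts in 3 ways. In the classical pathway C1q binds antibody or pentraxins and the proteases C1r and C1s are switched on. In the lectin pathway mannose-binding lectins, ficolins and collectins bind sugars and act through the proteases Masp1 and Masp2, and the alternative pathway amplifies C3 cleavage with the help of properdin. All routes cleave C3 and then C5, and C5b gathers C6, C7, C8 and C9 into the membrane attack complex. Regulators in plasma and on cell membranes restrain each step, and the released peptides C3a and C5a act on receptors of myeloid cells.

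Liver identity was clear in every library: the hepatocyte genes Alb, Apoa1, Tf, Fgb, Cps1 and Apoh summed to between 153012 and 260797 CPM (counts scaled to library size with edgeR's TMM factors). Library totals lay between 19295580 and 28672439 counts. Each library came from a separate animal. Among marker genes of other cell types, the adipocyte genes Lep, Adipoq and Plin1 were too low to test, with Lep listed at 0 in all libraries. The adipocyte list summed to 72.1 to 107 CPM with vehicle and 91.2 to 129 CPM with FSH, nearly all from Cidec. Cidec had a higher fold change at an unadjusted p under 0.05 in edgeR (6.42% of all tested genes were higher at that level). Fabp4 had a lower one that did not reach it. Neutrophil markers summed to at most 3.41 CPM and bile duct markers to at most 17.4 CPM. Markers of T, NK and B cells summed to at most 7.02 CPM. The 6 stellate cell and fibroblast markers summed to 191 to 257 CPM with vehicle and 143 to 179 CPM with FSH, mostly from Col3a1. All 6 had a lower fold change, 2 of them at an unadjusted p under 0.05 (5.14% of all tested genes were lower at that level). The 4 endothelial markers tested all had a higher fold change, 2 of them at that level (6.42% of all tested genes), and summed to 87.6 to 114 CPM with vehicle and 109 to 135 CPM with FSH. In whole tissue, fewer cells of a type and less RNA per cell cannot be told apart. The part of these shifts in the complement values was not tested. The 33 members together took 2.71 to 3.37% of the counts in vehicle libraries and 2.82 to 4.35% in FSH libraries. C3 alone took 1.33 to 1.78% in vehicle libraries and 1.45 to 2.32% in FSH libraries.

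No complement gene passed the threshold of an adjusted p (false discovery rate, FDR) of 0.05 over all genes in edgeR's quasi-likelihood test. The nearest were Cpn2 and C1r, both with higher values in FSH. In that test 0.0335% of all tested genes passed. At an unadjusted p under 0.05 there were 6 of 30 members, 5 higher with FSH (Cpn2, C1r, C8a, Cpn1 and C5) and 1 lower (Cd59), where 11.6% of all tested genes reached that level, 6.42% higher and 5.14% lower. DESeq2's Wald test called 2 members, Cpn2 and C1r, both higher, against 1.65% of the genes it gave an adjusted p. It gave none for the member Fcnb. The limma-voom test with sample weights called 0 of 30 members, against 0.0503% of all genes.

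As a list, 24 of 30 tested members had a fold change above 0, against 50.5% of all tested genes. Their median log2 fold change (FSH over vehicle, called the log2 ratio from here on) was 0.09, while that of all tested genes was 0.00189. All but 1 member lay within 0.5 of no change on the log2 scale, the exception being C1r. In 1 member, Cpn2, the groups did not overlap, with FSH above vehicle. Groups did not overlap in 4.11% of all tested genes, 2.19% with FSH above and 1.92% with FSH below. The counts moved with 2 libraries. FSH replicate 3 held the highest of all 9 values for 13 of the 30 members, against 11.9% of all tested genes, and vehicle replicate 2 the lowest for 12, against 14.3%. Without vehicle replicate 2 the members with a fold change above 0 numbered 18 (median 0.06), and without FSH replicate 3 they numbered 19 (median 0.05). With both left out they numbered 17, against 49.9% of all tested genes, and the median was 0.01. Both were chosen after their values were seen, and leaving out a low vehicle and a high FSH library lowers these values by construction. In the other direction, the median was 0.14 without vehicle replicate 3, 0.15 without vehicle replicate 5 and 0.17 without FSH replicate 1.

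**Figure D1:**
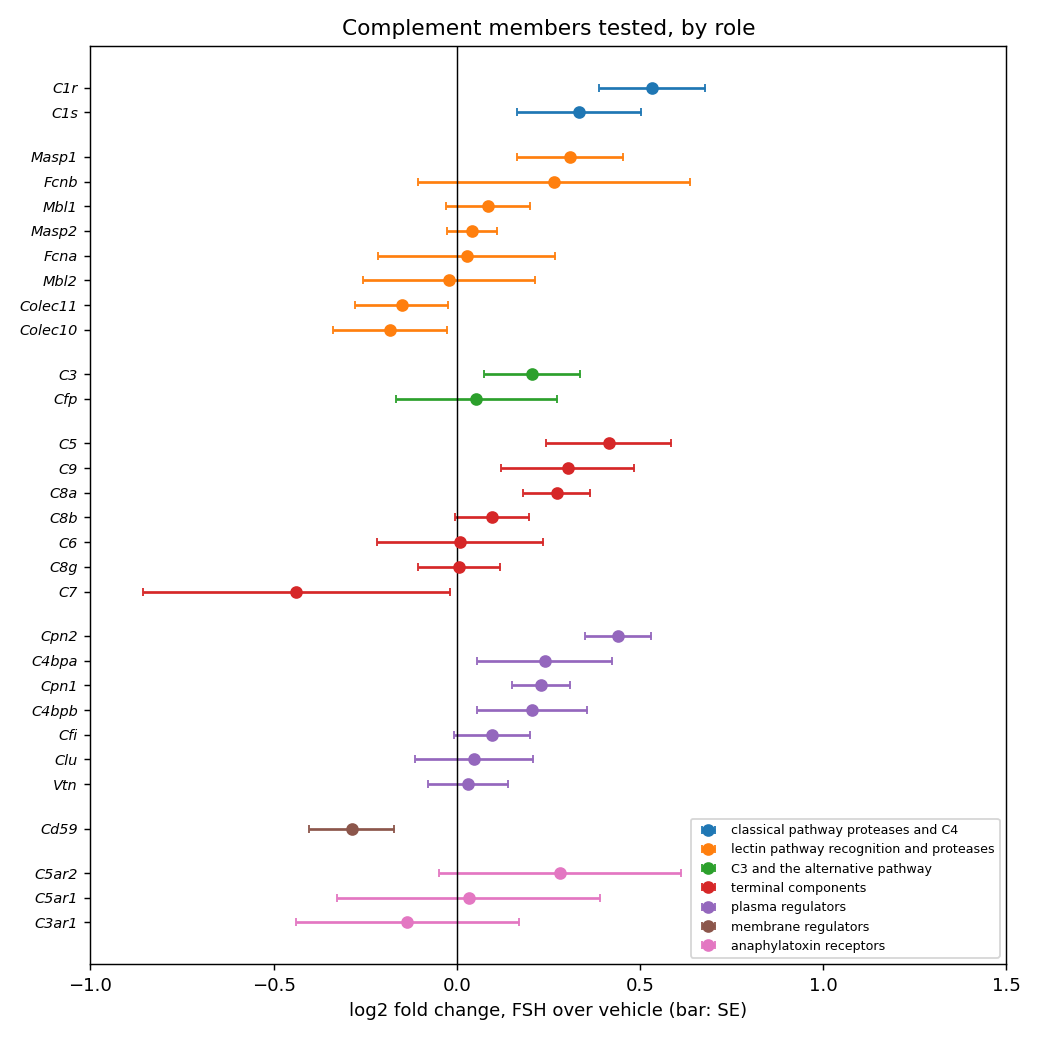
Log2 fold change of FSH over vehicle for the 30 complement members tested, with points for the edgeR estimate, bars for the standard error and colors for the role of the gene. C1r and Cpn2 lie farthest above 0, at 0.53 and 0.44, and C7 farthest below, at -0.44 with a wide error.

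The values of each animal show how the list is made up. The median member, as log2(CPM + 0.5) relative to the vehicle mean, stood at -0.04, -0.15, 0.14, -0.00241 and 0.04 in vehicle replicates 1 to 5. In FSH replicates 1 to 4 it stood at -0.00436, 0.11, 0.30 and 0.12. FSH replicate 3 was the only animal above every vehicle animal on this measure, and FSH replicate 1 lay in the middle of the vehicle group. These 2 libraries also had the lowest and the highest share of counts from albumin (Alb), 10.5% in FSH replicate 3 and 19.4% in FSH replicate 1, with 12.2 to 16.7% in the others. Of all pairs within a group they differed most, with a chi-square per degree of freedom of 158 against at most 89.4 for any other pair. The part of this in the members' values was not tested.

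**Figure D2:**
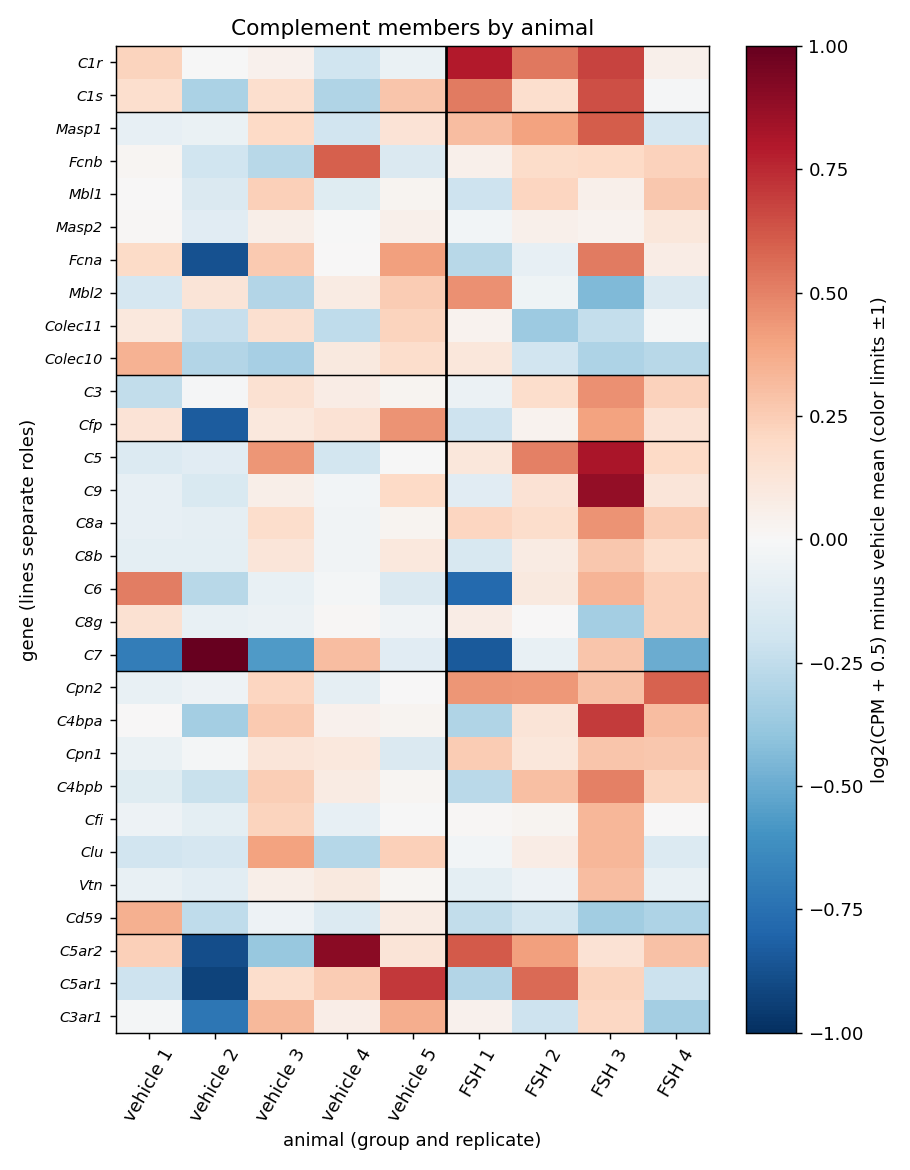
Level of each tested complement member (rows, with lines between roles) in each animal (columns), as log2(CPM + 0.5) minus the vehicle mean, with red for higher and blue for lower. The column of FSH replicate 3 is red for most secreted components, with C9 at 1979 CPM, and that of vehicle replicate 2 is deepest blue for Fcna, Cfp and the anaphylatoxin receptors.

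Promoter sequences are shown for 4 of the 6 members with an unadjusted p under 0.05, those for which RefSeq (build GRCr8) gave one. Of the 33 members in the table, 23 had such a sequence. Each is the 250 bases before the annotated start, written in the direction of the gene, with matches to the searched motifs in capitals. The windows are chr4:159098763-159099012 on the plus strand for C1r, and on the minus strand chr3:38759469-38759718 for C5, chr5:124866632-124866881 for C8a and chr1:252822676-252822925 for Cpn1.
C1r: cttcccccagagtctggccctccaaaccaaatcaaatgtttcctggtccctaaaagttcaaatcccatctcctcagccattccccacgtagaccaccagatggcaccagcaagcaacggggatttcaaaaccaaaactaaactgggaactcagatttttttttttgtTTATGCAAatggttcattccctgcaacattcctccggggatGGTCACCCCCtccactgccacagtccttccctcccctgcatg
C5: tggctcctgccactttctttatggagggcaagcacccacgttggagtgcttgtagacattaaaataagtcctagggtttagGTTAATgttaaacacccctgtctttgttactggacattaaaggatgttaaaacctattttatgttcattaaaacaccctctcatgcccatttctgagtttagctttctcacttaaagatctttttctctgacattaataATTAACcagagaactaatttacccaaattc
C8a: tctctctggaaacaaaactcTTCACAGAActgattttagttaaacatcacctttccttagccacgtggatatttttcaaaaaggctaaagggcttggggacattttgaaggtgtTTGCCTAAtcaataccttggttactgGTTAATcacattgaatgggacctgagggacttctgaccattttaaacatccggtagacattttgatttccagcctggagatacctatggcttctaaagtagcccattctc
Cpn1: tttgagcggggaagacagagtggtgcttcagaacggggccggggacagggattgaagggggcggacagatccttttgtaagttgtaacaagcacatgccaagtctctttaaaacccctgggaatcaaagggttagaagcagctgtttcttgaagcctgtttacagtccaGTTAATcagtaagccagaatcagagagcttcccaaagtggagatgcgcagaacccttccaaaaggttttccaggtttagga

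The motifs searched on both strands were TTGCNNAA (C/EBP factors), TTCNNNGAA (STAT factors), NF-kB (GGG and CC spaced by NNNNN), GTTAAT (HNF1) and TGACG (the core of the cyclic AMP response element). GTTAAT is only a part of the HNF1 site, and the whole site was not searched. The matches do not overlap each other in the printed windows. In C1r the capitals are 1 C/EBP and 1 NF-kB match, in C5 they are 2 HNF1 matches, in C8a 1 STAT, 1 C/EBP and 1 HNF1 match, and in Cpn1 1 HNF1 match. The partial HNF1 motif was found in 6 of 23 member promoters, against 6.45% of all 33469 promoters, and the C/EBP motif in 7 of 23, against 9.22%. The STAT motif was in 4 of 23 (7.67% of all promoters), NF-kB in 7 of 23 (42.3%) and the cyclic AMP core in 2 of 23 (18.2%), neither of which is among those shown. Such matches describe letters only.

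Among the initiating proteases, C1r (ENSRNOG00000011796), which is activated first when C1q binds and then cleaves C1s, had the highest fold change of all members. It was at 720.4, 616, 634, 539 and 591 CPM in vehicle replicates 1 to 5 and at 1071, 892, 987 and 638 CPM in FSH replicates 1 to 4. FSH replicates 1 to 3 lay above every vehicle animal, and FSH replicate 4 lay within the vehicle range. The means were 897 ± 188 CPM (SD, n = 4) in the FSH group and 620.1 ± 66.6 CPM (n = 5) in the vehicle group, a log2 ratio of 0.53 (SE 0.15, adjusted p = 0.237 in edgeR). In DESeq2 it was 0.53 (SE 0.15, adjusted p = 0.0431). Leaving out 1 animal moved the edgeR value between 0.44 (without FSH replicate 1) and 0.67 (without FSH replicate 4).

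C1s, which cleaves C4 and C2 and is the immediate neighbour of C1r in the RefSeq annotation, had values of 600.2, 429.8, 599, 435 and 647 CPM with vehicle. With FSH it was at 766, 601, 834 and 531 CPM. FSH replicates 1 and 3, the 2 highest for C1r, were above all vehicle animals for C1s too, and the others were not. Its log2 ratio was 0.33 (SE 0.17, adjusted p = 0.49 in edgeR), and 0.22 without FSH replicate 3. C4a had only 0 to 9 reads per library (23 in all), too few for any comparison. Its close copy C4b was not analysed here, and how reads fitting both copies were counted is not given in the sources used here.

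The chains of C1q, which activates these proteases, had log2 ratios within their standard errors of 0. They are not members and were singled out after their values were seen. C1qa, C1qb and C1qc had log2 ratios of -0.03 (SE 0.20), -0.06 (SE 0.23) and -0.04 (SE 0.23), with edgeR adjusted p of 0.967, 0.944 and 0.969. Among 17 related complement genes, 12 could be tested, 4 with a higher and 8 with a lower fold change, and 0 passed. Of all tested genes 50.5% were higher, and 0.0335% passed. The smallest p in that list belonged to Crp, C-reactive protein, a pentraxin that can bind C1q (log2 ratio 0.29, SE 0.12, adjusted p = 0.399 in edgeR). It was followed by Cd93 at 0.37 (SE 0.19), the pentraxin Apcs at 0.15 (SE 0.10) and C1qbp at -0.05 (SE 0.07), with edgeR adjusted p of 0.486, 0.61 and 0.827.

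In the lectin pathway 5 of 8 members had a higher and 3 a lower fold change, and 0 reached even an unadjusted p under 0.05. Of all tested genes 50.5% were higher, and 11.6% reached that level. Masp1, the protease that starts this pathway, was at 82.5 ± 17.6 CPM (n = 4) in the FSH group and 66.6 ± 7.71 CPM (n = 5) in the vehicle group (log2 ratio 0.31, SE 0.14, adjusted p = 0.451 in edgeR). FSH replicate 3, at 101 CPM, was again the highest, and the value was 0.19 without it. Masp2, the protease that cleaves C4 and C2, was among the steadiest members, at 238 to 268 CPM with vehicle and 253 to 278 CPM with FSH. Its log2 ratio was 0.04, with a 95% interval from -0.11 to 0.19.

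The mannose-binding lectins Mbl1 and Mbl2 had log2 ratios of 0.08 (SE 0.12) and -0.02 (SE 0.24), with adjusted p of 0.824 and 0.984 in edgeR. Mbl2 rests on 34 to 76 reads per library, and its direction turned over without vehicle replicate 2 or 5 or FSH replicate 3 or 4. Of the collectins, Colec11 had -0.15 (SE 0.13). Colec10, a partner of Colec11 in secreted complexes, was at 38.7, 24.6, 23.9, 32.5 and 34.3 CPM with vehicle and at 32.8, 26.4, 24.4 and 24.8 CPM with FSH. All FSH values of Colec10 lay within the vehicle range (log2 ratio -0.18, SE 0.16, adjusted p = 0.702 in edgeR), and the value was -0.09 without vehicle replicate 1. The ficolin Fcnb was at 6 to 22 reads per library (0.27, SE 0.37, adjusted p = 0.831 in edgeR), with 0.71 without vehicle replicate 4 and 0.10 without vehicle replicate 3.

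C3, the component on which all pathways meet, was at 18835 ± 2762 CPM (n = 4) in the FSH group and 16334 ± 1616 CPM (n = 5) in the vehicle group. Values ran from 13747 to 18075 CPM with vehicle and from 15587 to 22308 CPM with FSH, so that the groups overlapped. The log2 ratio was 0.21 (SE 0.13, adjusted p = 0.586 in edgeR) and 0.11 without FSH replicate 3. Its 95% interval ran from -0.08 to 0.49.

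Of the terminal components 6 of 7 had a higher fold change, against 50.5% of all tested genes. Among the 6 were C6 and C8g, at log2 ratios of only 0.00855 and 0.00593. At an unadjusted p under 0.05 there were 2, both higher, where 6.42% of all tested genes were higher at that level. C8a (ENSRNOG00000007697), the chain of C8 that inserts into the membrane, was at 1046, 1036, 1249, 1081 and 1123 CPM with vehicle and at 1284, 1246, 1506 and 1316 CPM with FSH. Only vehicle replicate 3 reached into the FSH range. The means were 1338 ± 116 and 1107 ± 86.3 CPM, a log2 ratio of 0.27 (SE 0.09, adjusted p = 0.321 in edgeR). The other chains of C8 had smaller values: C8b, next to C8a in the RefSeq annotation, had 0.10 (SE 0.10) and C8g 0.00593 (SE 0.11), with adjusted p of 0.762 and 0.991 in edgeR. Whether the 3 chains differ from each other was not tested.

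C5 (ENSRNOG00000018899), whose cleavage gives C5a and starts the membrane attack complex, was at 530.5, 538, 789.8, 514 and 581 CPM with vehicle and at 629.6, 825, 1027 and 670.3 CPM with FSH. Every FSH animal was above 4 of the 5 vehicle animals, and vehicle replicate 3 was above 2 FSH animals. The means were 788 ± 180.1 and 590.7 ± 114 CPM (log2 ratio 0.42, SE 0.17, adjusted p = 0.396 in edgeR). Leaving out 1 animal moved the value between 0.26 (without FSH replicate 3) and 0.54 (without vehicle replicate 3). It kept an unadjusted p under 0.05 only without vehicle replicate 3 or FSH replicate 1 or 4. C1r, Cpn2, C8a and Cpn1 kept theirs in every fit without 1 animal.

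C9, which forms the ring of the pore, had its high mean from 1 animal. It was at 994, 1193, 1979 and 1174 CPM in FSH replicates 1 to 4 and at 971 to 1237 CPM with vehicle. The log2 ratio of 0.30 (SE 0.18, adjusted p = 0.567 in edgeR) was 0.05 without FSH replicate 3. C6, which binds C5b first and lies close to C7 in the RefSeq annotation, had its highest value in vehicle replicate 1 (679 CPM) and its lowest one in FSH replicate 1 (277 CPM). Its means were 487 ± 145 and 484 ± 112 CPM (0.00855, SE 0.23, adjusted p = 0.995 in edgeR).

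C7 is made largely by cells other than hepatocytes and had the lowest fold change of all members. It was at 1.94, 7.78, 2.16, 4.38 and 3.14 CPM with vehicle and at 1.71, 3.25, 4.28 and 2.29 CPM with FSH. The highest value belonged to vehicle replicate 2, and the groups overlapped throughout (log2 ratio -0.44, SE 0.42, adjusted p = 0.735 in edgeR). Leaving out 1 animal moved it between -0.70 (without FSH replicate 3) and -0.02 (without vehicle replicate 2). The sums of the stellate cell and fibroblast markers were lower in the FSH group and did not overlap between groups. Most of each sum came from Col3a1, at 141 to 193 CPM with vehicle and 101 to 129 CPM with FSH. Of the 6 markers it was the 1 whose groups did not overlap (FSH below in 1.92% of all tested genes). The part of these markers in C7 was not tested.

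**Figure D3:**
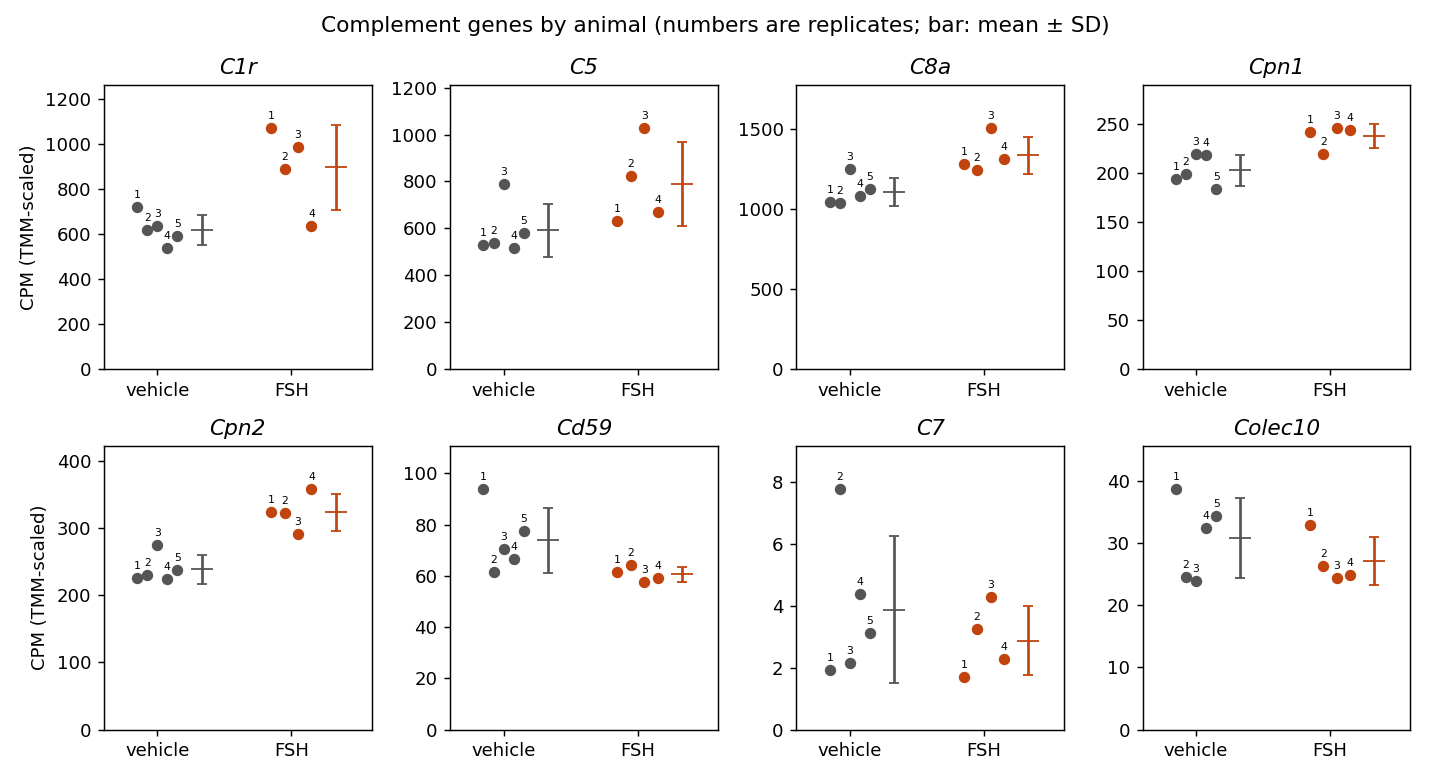
TMM-scaled CPM in each animal for 8 complement genes, with gray points for vehicle, orange points for FSH, replicate numbers above the points and bars for mean ± SD. Cpn2 is the only gene of the 8 whose FSH points, 291 to 358 CPM, all lie above the vehicle points, 223 to 275 CPM.

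All 7 plasma regulators had a higher fold change with FSH, against 50.5% of all tested genes. Those of Cfi, Clu and Vtn lay within their standard errors of 0. The lead belonged to carboxypeptidase N, the plasma enzyme that inactivates C3a, C5a and kinins by removing their last residue. Cpn2 (ENSRNOG00000024384), its regulatory subunit, was at 226, 230.0, 275, 223 and 238 CPM with vehicle and at 324, 322, 291 and 358 CPM with FSH. Every FSH animal lay above every vehicle animal. The means were 324 ± 27.4 CPM (n = 4) and 238 ± 21.3 CPM (n = 5), a log2 ratio of 0.44 (SE 0.09, adjusted p = 0.175 in edgeR). Its value stayed between 0.39 and 0.50 when any 1 animal was left out, with an edgeR adjusted p of at least 0.0936 in those fits. DESeq2 gave an adjusted p of 0.00187.

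Cpn1 (ENSRNOG00000013439), the catalytic subunit, showed a smaller difference in the same direction. It was at 193, 199, 219.3, 218 and 183 CPM with vehicle and at 242, 218.9, 245 and 244 CPM with FSH. Apart from FSH replicate 2, which sat just below vehicle replicate 3, the FSH animals were above all vehicle animals. The means were 237 ± 12.5 and 203 ± 15.7 CPM (log2 ratio 0.23, SE 0.08, adjusted p = 0.334 in edgeR).

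The other plasma regulators had smaller values relative to their errors. C4bpa and C4bpb, chains of the C4b-binding protein that helps to degrade C4b, had log2 ratios of 0.24 (SE 0.18) and 0.21 (SE 0.15), with adjusted p of 0.662 and 0.648 in edgeR. Without FSH replicate 3 these were 0.05 and 0.09. Cfi, the protease that cuts C3b and C4b, had 0.10 (SE 0.10). Clusterin (Clu) and vitronectin (Vtn), which keep the terminal complex from membranes, had 0.05 (SE 0.16) and 0.03 (SE 0.11), and turned below 0 in some fits without 1 animal, as far as -0.06 and -0.08 without FSH replicate 3.

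On cell membranes Cd59 (ENSRNOG00000042821), which blocks the assembly of C9, was the only member past an unadjusted p of 0.05 in the downward direction. It was at 93.9, 61.3, 70.4, 66.5 and 77.4 CPM with vehicle and at 61.5, 64.1, 57.5 and 59.0 CPM with FSH. The FSH animals were close together at the low end, and only vehicle replicate 2 reached into their range. The means were 60.5 ± 2.91 and 73.9 ± 12.6 CPM (log2 ratio -0.29, SE 0.12, adjusted p = 0.39 in edgeR), and without vehicle replicate 1 the value was -0.19. It was no longer at an unadjusted p under 0.05 without vehicle replicate 1 or 5 or FSH replicate 1, 3 or 4. Cd46 and Cd55, which also protect membranes, had 0 to 12 and 0 to 6 reads per library. Cr1l, a further membrane regulator of the related list, averaged 27.0 CPM in the FSH group and 27.1 CPM in the vehicle group.

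The receptors of the released peptides were low. C3ar1 was at 0.612 to 1.86 CPM with vehicle and 0.951 to 1.62 CPM with FSH, C5ar1 at 1.04 to 4.31 and 1.91 to 3.86 CPM, and C5ar2 at 2.02 to 8.21 and 4.63 to 6.63 CPM. None had an unadjusted p under 0.05, and their log2 ratios of -0.13, 0.03 and 0.28 had standard errors of 0.31, 0.36 and 0.33. Leaving out 1 animal moved C5ar1 between -0.20 (without FSH replicate 2) and 0.27 (without vehicle replicate 5). For C3ar1 it gave -0.34 (without vehicle replicate 2) to -0.01 (without vehicle replicate 3). It moved C5ar2 between 0.08 (without vehicle replicate 2) and 0.61 (without vehicle replicate 4). A change as large as that of C1r was not detectable in C5ar1, whose 95% interval ran from -0.76 to 0.83.

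Properdin, the ficolin Fcna and the C1q chains, which macrophages make, were lowest in the animal with the lowest macrophage marker sum. Properdin (Cfp), which stabilises the C3 convertase, was at 78.4, 39.7, 76.6, 78.5 and 97.1 CPM in vehicle replicates 1 to 5 and at 61.4, 72.7, 94.4 and 78.7 CPM in FSH replicates 1 to 4. The ficolin Fcna was at 40.1, 18.9, 42.1, 35.0 and 46.8 CPM with vehicle and at 28.8, 33.1, 50.3 and 36.8 CPM with FSH. In both genes vehicle replicate 2 was the lowest animal, and vehicle replicate 5 and FSH replicate 3 were the 2 highest.

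The 8 Kupffer cell and macrophage markers summed to 466, 194, 400.2, 424 and 589.6 CPM in vehicle replicates 1 to 5 and to 357, 379, 526 and 375 CPM in FSH replicates 1 to 4. All 8 markers were lowest in vehicle replicate 2, as were C1qa, C1qb and C1qc (63.0, 44.6 and 47.1 CPM), Cfp, Fcna and the 3 anaphylatoxin receptors. That animal was also the lowest for C9, Cfi, C1s, C8a, Masp2, Vtn and C4bpa, so its low values were not confined to genes that macrophages make. The log2 ratios of Cfp and Fcna were 0.05 (SE 0.22) and 0.03 (SE 0.24), with adjusted p of 0.95 and 0.98 in edgeR. They were -0.11 and -0.14 without vehicle replicate 2, and -0.06 and -0.16 without FSH replicate 3. Whether the marker levels have a part in the members' values was not tested.

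**Figure D4:**
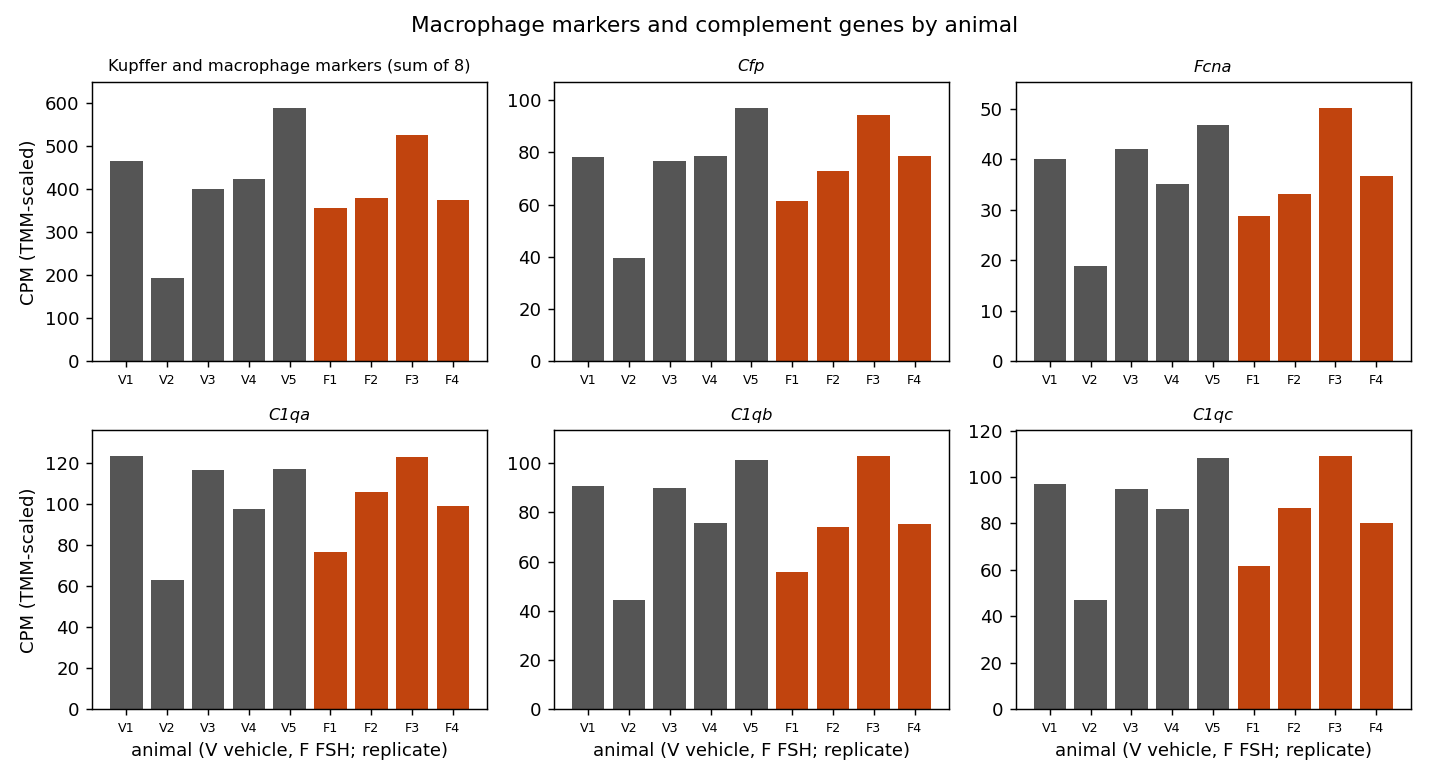
Bars give TMM-scaled CPM in each animal (V1 to V5 vehicle in gray, F1 to F4 FSH in orange) for the sum of 8 macrophage markers and for 5 complement genes. The bar of vehicle replicate 2 is the lowest in each panel, with a marker sum of 194 CPM.

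A list for cytokine signalling to hepatocytes was read beside the complement genes, since many complement genes belong to the acute phase response. Besides signalling genes it holds secreted products such as Hp, Itih4, Fgb, Saa4 and Orm1, and Fgb is also among the hepatocyte genes above. Of 17 tested genes in that list 13 had a higher fold change, 5 had an unadjusted p under 0.05, all higher, and 0 passed over all genes. Of all tested genes 50.5% were higher, and 6.42% were higher at that unadjusted p. The 4 with the smallest p were Il6st, the signalling chain of the interleukin-6 receptor (log2 ratio 0.58, SE 0.18), Itih4 (0.41, SE 0.13), the fibrinogen chain Fgb (0.55, SE 0.18) and Socs3, a feedback inhibitor of cytokine signalling (0.96, SE 0.35). Their edgeR adjusted p-values were 0.307, 0.31, 0.312 and 0.353. Of the 4 genes with a lower fold change, Orm1 (-0.63, SE 0.48) and Lcn2 (-0.51, SE 0.47) lay farthest below 0. A2m was too low to test. The summed level of the list was 19184 to 24804 CPM with vehicle and 20502, 26650.5, 34752 and 24564 CPM in FSH replicates 1 to 4. Most of that sum came from Hp, Itih4 and Fgb, at 13981, 10619 and 7009 CPM in FSH replicate 3. Hp and Itih4 were highest in that animal, and Fgb was highest in FSH replicate 2, at 7504 CPM. FSH replicate 3 was thus the highest animal for a sum made mostly of these 3 genes, as in 13 complement members. It held the highest value for 6 of the 17 genes, against 11.9% of all tested genes. The part of this in the complement values was not tested.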

How the data were processed

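RNA from snap-frozen liver was made into paired-end, stranded libraries, 1 per rat, per the labels' protocols. The deposited values are raw read counts per gene, whole numbers that the authors left unscaled. STAR, edgeR, DESeq2 and build rn6 are named in the submitters' processing notes, without versions. Which annotation and strand setting were used is not given in the sources used here.

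A single model over all genes was fitted to the 4 FSH and 5 vehicle libraries in R 4.3.3 with edgeR 4.0.16: quasi-likelihood F-test, 2-sided, TMM scaling, low counts filtered by group, and Benjamini-Hochberg adjustment over 11924 genes at an FDR of 0.05. The standard error is the fold change divided by the root of F. A single read is worth 0.0353 to 0.0532 CPM. DESeq2 1.42.0 and limma 3.58.1 served as alternatives. The edgeR fit was tested on simulated data. Any 2 libraries of a group differed by more than sampling noise (chi-square per degree of freedom 27.4 to 158).

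The members and lists were chosen with earlier results of these data known. Members with an unadjusted p under 0.05, with groups that do not overlap, or with the 3 highest or lowest fold changes are given in every animal; of the related complement genes and the cytokine signalling genes, the 4 with the smallest p are named. Cell type marker lists are given by sums, and some of them by counts too. Intervals cover 95%.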

Additional observations from a re-analysis of the deposited data

Results flagged for a closer look

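For each of the 30 tested members, the gap of the extreme animal of a group was set against the range of that group (Dixon), in 60 sets of values, and 8 sets had such an animal. Chance alone flags about 1 in 20 such sets. In the FSH group these were replicate 3 for Cfi (1566 CPM, next 1269 CPM) and Vtn (5513 CPM, next 4306 CPM), both the highest, and replicate 2 for Cpn1, the lowest (218.9 CPM, next 242 CPM). In the vehicle group replicate 3 was highest for Cfi (1455 CPM, next 1244 CPM), C5 (789.8 CPM, next 581 CPM) and Cpn2 (275 CPM, next 238 CPM). Replicate 1 was highest for C6 (679 CPM, next 469 CPM), and replicate 4 for Fcnb (0.868 CPM, next 0.419 CPM), a gene of few reads.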

How the results depend on the processing

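The count of 0 members past FDR 0.05 held in edgeR in every fit without 1 animal, with other scalings and filters and at an FDR of 0.10, and was 2 in DESeq2, which gave no adjusted p for Fcnb. Members with an unadjusted p under 0.05 numbered 4 to 9 on leaving out 1 animal (9.15 to 12.2% of all genes in those fits), and members with a higher fold change 18 to 23 (49.1 to 51.0% of all genes). The count of members whose groups do not overlap was 1 to 5 on leaving out 1 animal (5 without vehicle replicate 3, 4 without FSH replicate 2, 3 without FSH replicate 4, 1 without vehicle replicate 5 or FSH replicate 3, and 2 without any other), where 5.41 to 8.36% of all genes did not overlap. It was 2 with total counts alone and 2 with vehicle replicate 2 and FSH replicate 3 both left out. The list's median ran from 0.05 (without FSH replicate 3) to 0.17 (without FSH replicate 1). No pairing of the animals by replicate number was visible. Correlations of same-numbered deviations were 0.03, 0.00434, 0.04 and -0.05, within the span of -0.18 to 0.13 for differently numbered pairs. A fit with the replicate number as a block gives vehicle replicate 5 a term of its own, since no FSH animal has that number. That animal then does not inform the FSH difference. With the replicate block 6 members had an unadjusted p under 0.05 and 24 a higher fold change, and the median was 0.18. Among the 6, C1s (0.0037) and Masp1 (0.016) took the place of Cpn1 (0.054) and Cd59 (0.077), values being unadjusted p in edgeR.

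Of 30 tested members 19 kept their sign in every fit. With the replicate block the sign turned for Mbl2 (0.016), C6 (-0.045), C8g (-0.015), C3ar1 (0.021), C1qa (0.041), C1qb (0.054) and C1qc (0.080). It turned with sample weights for Fcna (-0.016) and C8g (-0.0093), with total counts for C8g (-0.014) and with at least 1 CPM in 4 samples for C8g (-0.0011). With vehicle replicate 2 and FSH replicate 3 both left out it turned for Mbl2 (0.17), Fcna (-0.32), Cfp (-0.22), C6 (-0.18), C4bpa (-0.025), Cfi (-0.016), Clu (-0.099), Vtn (-0.10) and C5ar1 (-0.23). On leaving out 1 animal the values ran from -0.27 to 0.12 for Mbl2, -0.16 to 0.13 for Fcna, -0.11 to 0.17 for Cfp, -0.11 to 0.20 for C6 and -0.080 to 0.10 for C8g. They ran from -0.055 to 0.16 for Clu, -0.079 to 0.071 for Vtn, -0.20 to 0.27 for C5ar1, -0.17 to 0.079 for C1qa, -0.24 to 0.065 for C1qb and -0.20 to 0.087 for C1qc. The cause was not tested. Depth limits the genes of few reads, Fcnb, Mbl2, C7 and the receptors.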
